A study of Mus musculus with 20 samples.

Results

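The genes described here encode the core protein components of the spliceosome, in a study of how introns are removed while RNA is still being made in a red cell precursor line. The members were a fixed list of 45 genes, and all their introns in the authors' 2 deposited intron tables were taken, in both conditions. Of the 45 genes, 42 were tabulated, with 490 of the 68794 introns in all. No line was matched to Ddx23, Snrpa1 or Lsm2, which were not analysed here.

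The spliceosome is assembled anew on each intron from small nuclear ribonucleoproteins (snRNPs), particles of a small RNA and its proteins. U1 binds the 5' splice site and U2 the branch site, the U4/U6.U5 tri-snRNP then joins, the Prp19 complex helps to activate the assembly, and helicases remodel it and take it apart. Most snRNPs carry a ring of Sm proteins, while U6 carries a related ring of LSm proteins. The transcripts of these genes are themselves spliced by the machinery that they encode, and maturing red cells pass through a broad change of splicing before they lose their nucleus.

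Murine erythroleukemia (MEL) cells, a mouse line arrested as red cell precursors, were left untreated (uninduced) or kept for 5 days in 2% dimethyl sulfoxide, or DMSO (induced), which sets off erythroid maturation; both groups were wild type. RNA bound to chromatin, depleted of polyadenylated and of ribosomal RNA, was read as long molecules on PacBio instruments. Each group held 4 samples, which were 2 biological replicates on each of 2 instruments. The other 12 of the 20 samples were not analysed here. The tables give 1 pool for each condition, and which runs entered it is not stated. There is thus no value per replicate and no measure of replicate spread, and each test compares 2 pools of libraries and not 2 conditions.

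The uninduced pool held 416379 observations of an intron in a read and the induced pool 279371, and 1 long read can give an observation at several introns of a gene. All 12 listed erythroid markers were tabulated. The reads at the deepest intron went from 108 to 1099 for Hba-a1, from 7 to 317 for Alas2, from 0 to 85 for Slc4a1 and from 0 to 36 for Epb42, while the defining factor Tal1 stood at 0 uninduced and 1 induced read and Gata1 at 23 and 36. Whether a lower number of reads reflects fewer cells that make a transcript or less RNA per cell cannot be told apart in such pools.

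Nascent transcripts of the core spliceosome genes were mostly spliced at the time they were captured. For each intron the share of spliced reads among spliced and unspliced reads, the co-transcriptional splicing efficiency or coSE, was computed. The 42 genes gave 3672 uninduced observations, of which 86.1% were spliced, and 3039 induced observations, of which 87.6% were spliced. The same share over all introns of the table was 86.1% in both pools. A coSE was read only at introns with at least 10 reads in a pool, which left 122 member introns of 27 genes uninduced and 88 of 17 genes induced. Depth limits each of these values, since the median member intron held 16 reads uninduced and 16.5 induced and the deepest held 62. The median coSE of the member introns was 0.923 uninduced and 0.950 induced, beside 0.933 and 0.947 over all introns with that depth. All reads were spliced at 38 of the 122 uninduced introns (31.1%) and at 39 of the 88 induced introns (44.3%), beside 37.0% and 43.1% of all introns. A coSE below 0.5 was found at 4 uninduced and 2 induced member introns, which is 3.28% and 2.27% of them, beside 7.26% and 6.60% of all introns.

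**Figure D1:**
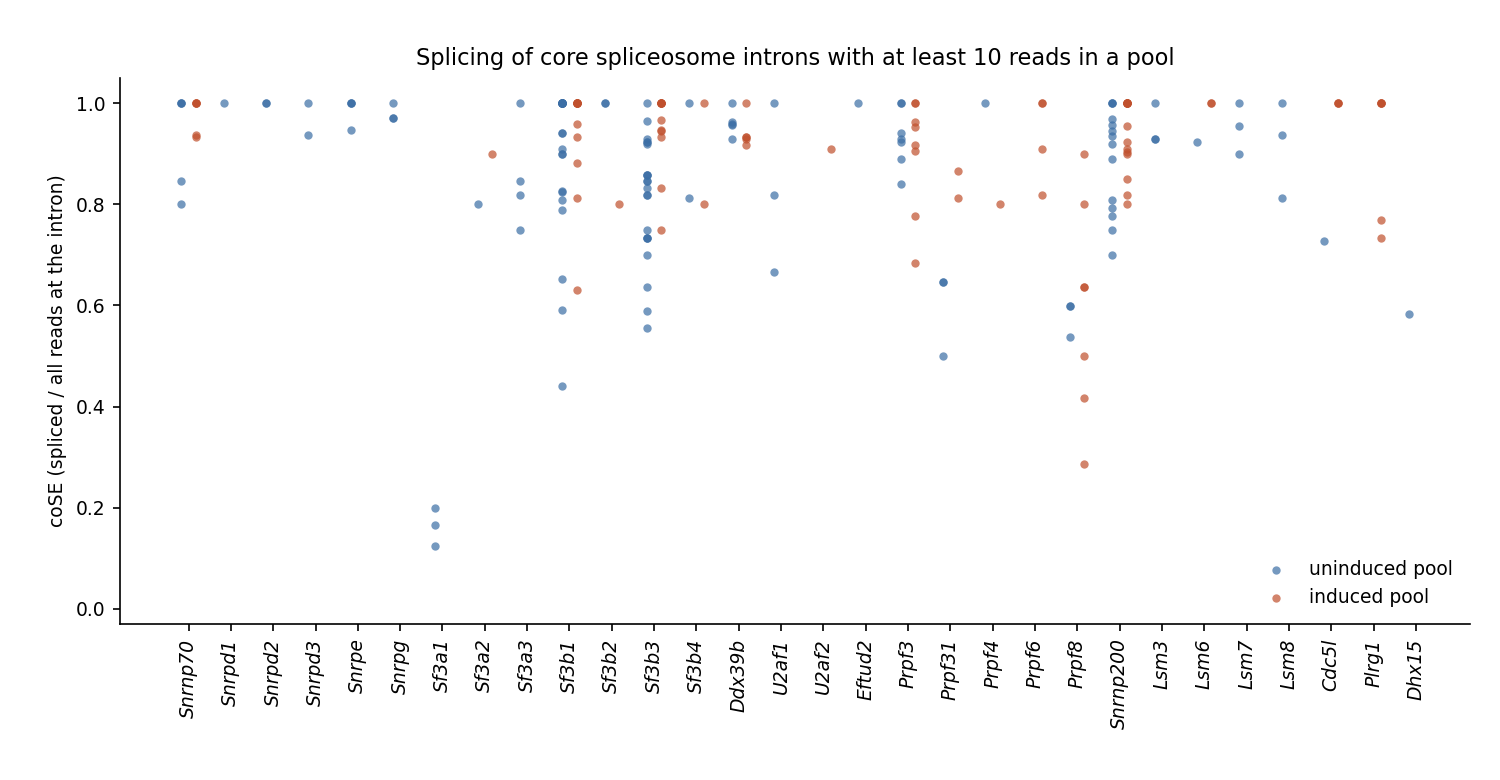
Co-transcriptional splicing efficiency (coSE, 0 to 1, vertical axis) of every member intron with at least 10 reads, by gene (horizontal axis) and pool. Each point is 1 intron of 1 pool, and genes stand in the order of their roles. Most points lie above 0.8, and the lowest are the 3 uninduced introns of Sf3a1, between 0.125 and 0.200.

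No change of coSE between the pools passed the test at any member intron. With at least 10 reads in both pools, 62 introns of 12 member genes could be compared by a two-sided Fisher's exact test with Benjamini-Hochberg adjustment over all 4403 introns of that depth. It called 0 of the 62, beside 71 of 4403, or 1.61%, of all introns. At an unadjusted p under 0.05, 2 of the 62 passed (3.23%), both higher in the induced pool, beside 7.97% of all introns. A chi-square test called 0 and had 0 at the unadjusted threshold. The coSE was higher in the induced pool at 32 of the 62 introns, lower at 18 and equal at 12, with a median difference (induced minus uninduced) of 0.0103 and a range from -0.244 to 0.348. Over all 4403 introns, 1879 were higher, 1534 lower and 990 equal. The counts allowed a change in 1 direction far better than in the other. A loss of all spliced reads would have passed at 59 of the 62 introns, while a rise to complete splicing would have passed at 1. All reads were spliced in both pools at 12 of the 62 introns, in the induced pool alone at 14 and in the uninduced pool alone at 5. Over all 4403 introns these counts were 953, 926 and 495, so the members showed the same order of the last 2. As a description over the 62 introns, which share libraries and, within a gene, reads, the 2 pools' coSE values had a Spearman correlation of 0.427 and a Pearson correlation of 0.588.

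**Figure D2:**
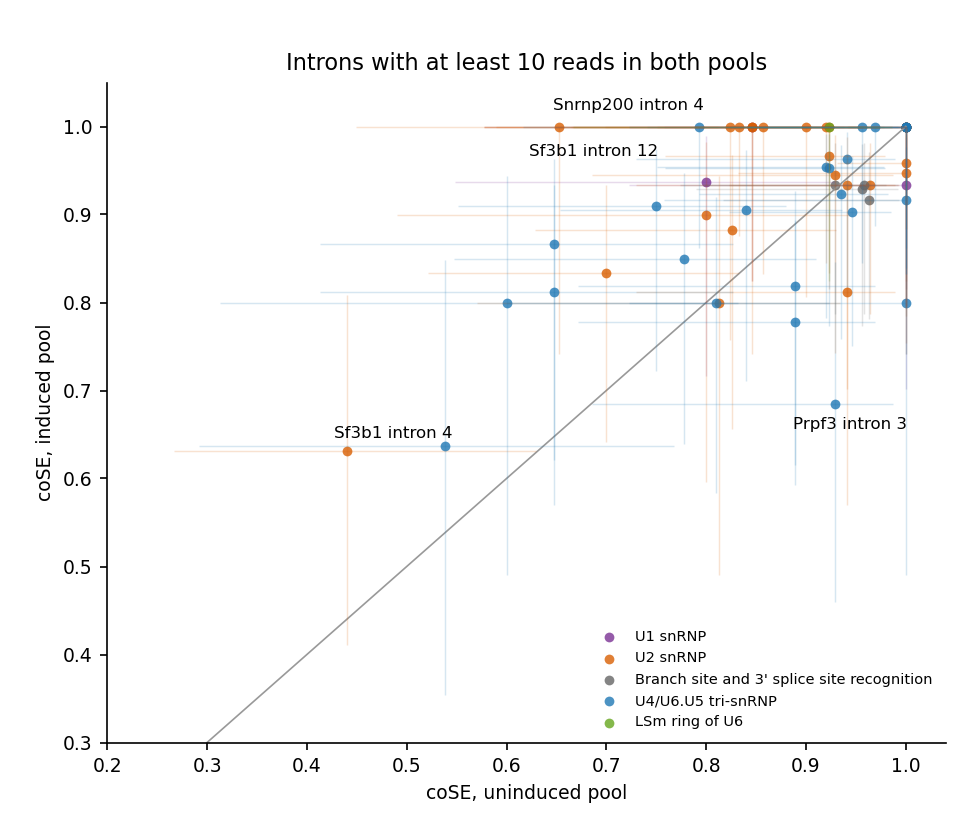
coSE in the uninduced pool (horizontal axis) against the induced pool (vertical axis), both as shares from 0 to 1, at the 62 member introns with at least 10 reads in both. Each point is 1 intron, coloured by role, with Wilson 95% intervals as thin lines (counting error only), and introns on the diagonal have equal values. Of the 62 points, 32 lie above the diagonal and 18 below it, and none passed the test.

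Among the U1 proteins, Snrnp70 (the U1-70K protein, which binds the U1 RNA) was the gene with introns deep enough to read. At its intron 3 the reads were 11 of 13 spliced uninduced and 18 of 18 induced. Intron 4, which holds the small RNA gene Gm22478, had 12 of 15 and 15 of 16. Both values were higher in the induced pool, and the tests gave p = 0.168 and p = 0.333 (Fisher's exact test), with an adjusted p of 1. Over its 5 comparable introns, 2 were higher, 1 lower and 2 equal. Snrpc, which helps U1 hold the 5' splice site, had 18 uninduced and 14 induced observations, and Snrpa, the other RNA-binding protein of the particle, had 9 and 3, of which all were spliced.

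The Sm ring genes were the most completely spliced role by their uninduced observations, 97.4% of 266. At their 12 introns with at least 10 reads, which came from 5 genes, the median coSE was 1, the lowest was 0.938 at Snrpd3 intron 1 (15 of 16 reads), and 8 introns were fully spliced. Snrpg had 33 of 34, 34 of 34 and 33 of 34 reads spliced at its introns 1 to 3, and Snrpe had 17 of 17, 18 of 19, 17 of 17 and 14 of 14 at its introns 1 to 4. Snrpd2 had 16 of 16 and 14 of 14, and Snrpd1 intron 1 had 15 of 15. No Sm ring intron reached 10 reads in the induced pool, so no coSE was compared there. Their 60 induced observations were 93.3% spliced. The splice sites of Snrpg, as deposited on mm10, are shown because this gene gave the most reads of the ring. Capitals mark the first 2 and the last 2 bases of the intron, the 5' site runs from 3 exon bases into the intron, and the 3' site ends with 3 exon bases. The introns lie on the plus strand, intron 1 at chr6:86371615-86375676, intron 2 at chr6:86375700-86376494 and intron 3 at chr6:86376620-86378732. The gene Gm44941 lies on the opposite strand at intron 1.
Snrpg intron 1, 5' splice site: gaaGTgagt
Snrpg intron 1, 3' splice site: ttttgctcttgcttttccAGgtt
Snrpg intron 2, 5' splice site: catGTaagt
Snrpg intron 2, 3' splice site: acttcttctttctcttacAGtga
Snrpg intron 3, 5' splice site: gtgGTgagt
Snrpg intron 3, 3' splice site: caactgacttctttctctAGgtc
The deposited scores of the 3' sites were 12.88, 11.77 and 10.48, against a median of 8.70 over all 6537 introns of the second table. Those of the 5' sites were 7.97, 8.31 and 8.95, against a median of 8.78.

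The U2 proteins held 56 of the 122 uninduced introns and the widest spread, from a coSE of 0.125 to 1. Their median was 0.852 uninduced and 0.983 induced, but over different introns. At the 26 introns comparable in both pools, 15 were higher in the induced pool, 6 lower and 5 equal, with a median difference of 0.0499.

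Sf3b1, the large subunit of the SF3B complex that holds the branch site, had the most observations of the members in the uninduced pool. It had 521 uninduced and 261 induced observations over 24 introns, and 89.6% and 89.3% of them were spliced. Its reads thinned out from the 5' end of the gene: intron 2 had 62 of 62 reads spliced uninduced and 29 of 29 induced. Intron 3 had 52 of 52 and 23 of 24, and intron 5 had 18 of 18 in both pools. Between these, intron 4 had 11 of 25 reads spliced uninduced (0.440, Wilson 95% interval 0.267 to 0.629) and 12 of 19 induced (0.632, 0.410 to 0.809). The difference was 0.192 with an interval from -0.0996 to 0.439, and the test gave p = 0.239 with an adjusted p of 1 (Fisher's exact test). So its coSE was below that of both neighbours in both pools, while the pools' own intervals overlapped. Intron 4 lies at chr1:55014563-55016375 on the minus strand of GRCm38, between coding exons, is 1813 nt long, and is an intron in 1 of the 3 annotated transcripts that span it. As background, the matching intron of human SF3B1 is known as an intron retained in maturing erythroblasts. Intervals here cover counting error only, since the libraries were amplified by PCR.

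The splice sites of introns 3, 4, 5 and 12 of Sf3b1 are shown in the same way, for the intron with the low coSE, its nearly fully spliced neighbours, and the intron with the largest difference between the pools. Intron 3 lies at chr1:55016491-55016778, intron 5 at chr1:55012273-55014482 and intron 12 at chr1:55001099-55001382, all on the minus strand and between coding exons.
Sf3b1 intron 3, 5' splice site: cagGTgatg
Sf3b1 intron 3, 3' splice site: agatgtgcctttttttttAGtat
Sf3b1 intron 4, 5' splice site: atgGTaatt
Sf3b1 intron 4, 3' splice site: gttgctgttcttttctgcAGgag
Sf3b1 intron 5, 5' splice site: gagGTagga
Sf3b1 intron 5, 3' splice site: ctgtttgaaatgtttttcAGaga
Sf3b1 intron 12, 5' splice site: aagGTtggt
Sf3b1 intron 12, 3' splice site: tttttttttaattctttcAGatt
The deposited 5' scores of introns 3, 4 and 5 were 5.99, 6.49 and 8.24 and the 3' scores 7.05, 9.94 and 8.20. Intron 3 scored lower than intron 4 at both ends, and the 5' score of intron 4 was itself above only 15.3% of all introns of the second table. Whether the scores bear on the low coSE was not tested.

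Sf3b1 intron 12 (284 nt) had the largest difference toward higher coSE among the comparable introns, with 15 of 23 reads uninduced (0.652, 0.449 to 0.812) and 11 of 11 induced (1, 0.741 to 1). The difference was 0.348 (0.0437 to 0.551), with p = 0.0339 and an adjusted p of 0.514 (Fisher's exact test), so it did not pass. Intron 14 (256 nt) had 13 of 22 uninduced and 4 of 8 induced reads spliced, and intron 9 (2311 nt) had 16 of 17 and 13 of 16, the latter a difference of -0.129. Over the 12 comparable introns of Sf3b1, 5 were higher in the induced pool, 3 lower and 4 equal, so the gene showed no common direction.

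**Figure D3:**
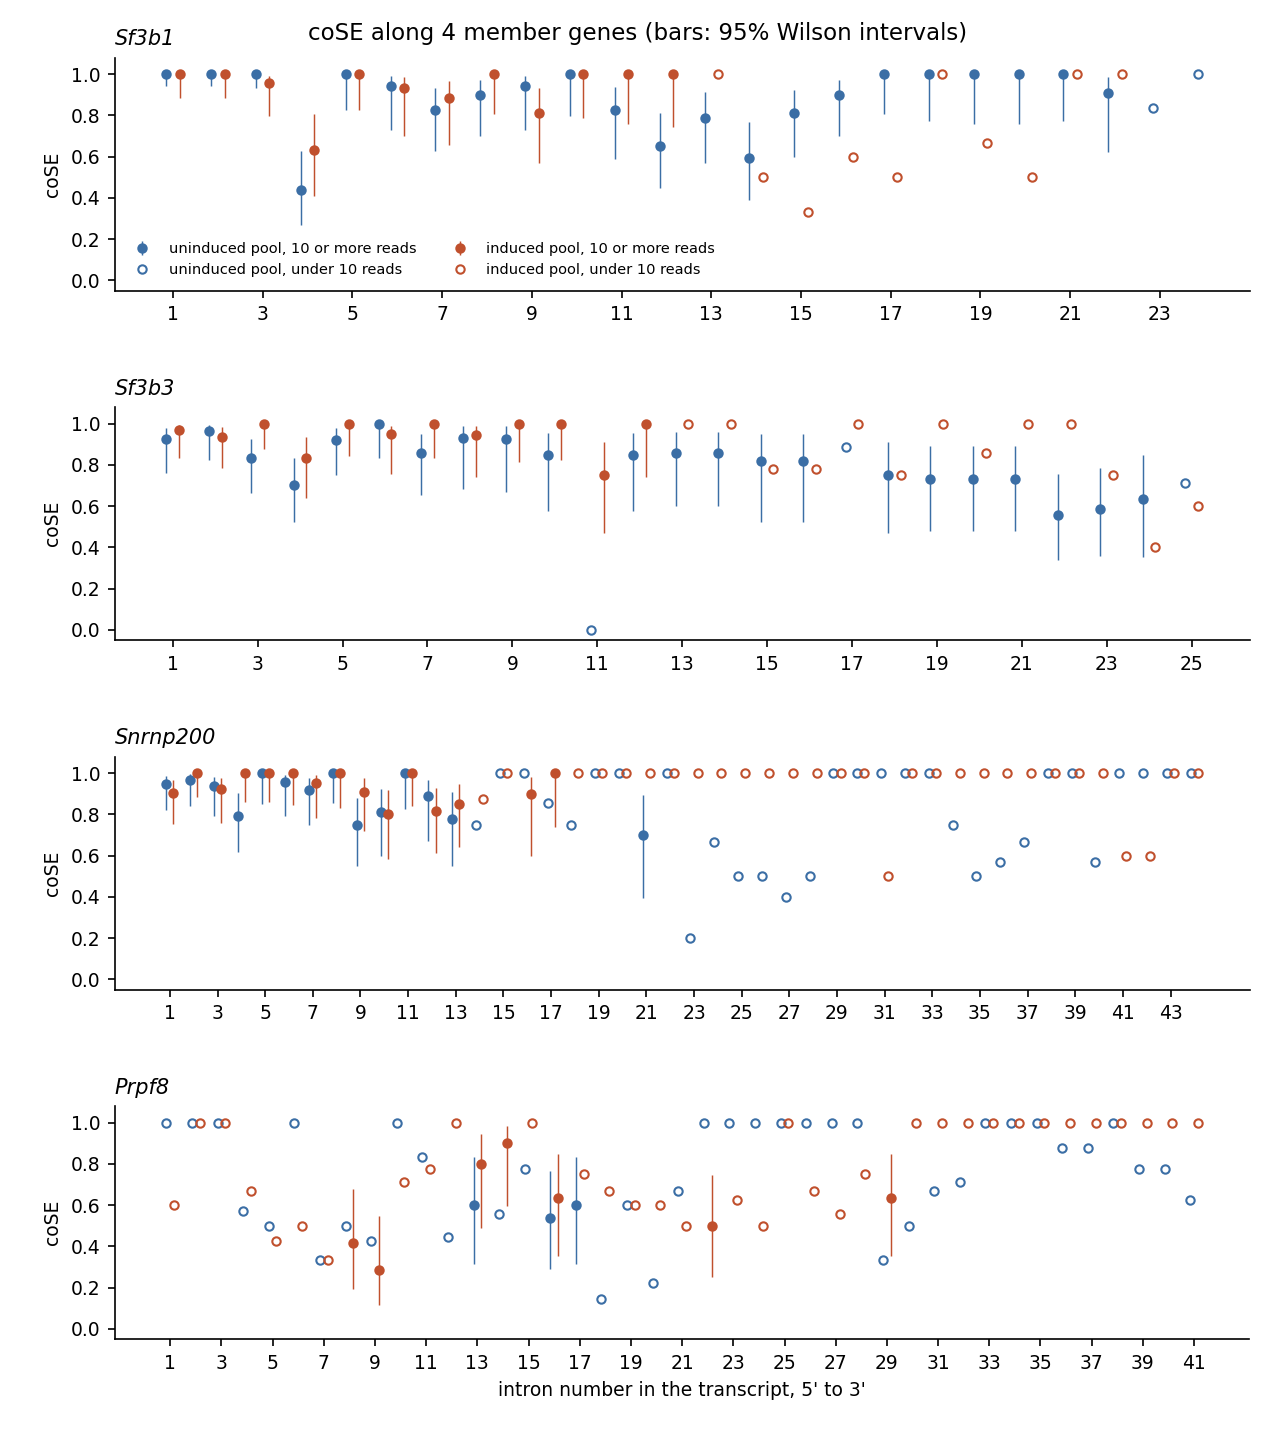
coSE (vertical axis, 0 to 1) by intron number from the 5' end (horizontal axis) along Sf3b1, Sf3b3, Snrnp200 and Prpf8 in both pools. Filled points are introns with at least 10 reads, with Wilson 95% intervals as bars (counting error only), and open points are introns with fewer reads, drawn without an interval. In Sf3b1, intron 4 stands at 0.440 uninduced and 0.632 induced between neighbours at or near 1.

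Sf3b3, another SF3B subunit, had a higher coSE in the induced pool at most of its introns. Of its observations, 80.4% were spliced uninduced (408 observations) and 92.3% induced (336). At introns with reads in both pools, 18 were higher in the induced pool, 6 lower and 1 equal, and among the 11 with at least 10 reads in both, 9 were higher. Intron 3 (chr8:110841944-110842687, minus strand) had 25 of 30 reads spliced uninduced and 27 of 27 induced, with p = 0.0533 and an adjusted p of 0.647 (Fisher's exact test). Intron 4 had 21 of 30 and 20 of 24, and intron 7 had 18 of 21 and 19 of 19. Toward the 3' end, intron 22 had 10 of 18 and 6 of 6, and intron 23 had 10 of 17 and 6 of 8, which was below the minimum depth in the induced pool. Intron 11 (5237 nt) had 0 of 7 and 9 of 12 reads spliced and was below the minimum uninduced. None of the 11 comparable introns passed the test, and since introns of a gene share reads, the 18 higher introns are not 18 separate observations.

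Sf3a1, a subunit of the SF3A complex that joins U2, had the lowest uninduced spliced share of the 42 genes, 37.7% of 69 uninduced and 48.6% of 37 induced observations. In the uninduced pool the low values sat at its 3' end. Introns 13, 14 and 15 had 2 of 12, 2 of 16 and 3 of 15 reads spliced uninduced, which is a coSE of 0.167, 0.125 and 0.200. Their induced reads were 1 of 1, 1 of 2 and 1 of 1, too few to compare. The induced unspliced reads lay in the middle of the gene instead, where introns 8, 9 and 10 had 2 of 7, 2 of 6 and 2 of 6 reads spliced and 3 of 4, 3 of 4 and 3 of 5 uninduced. Introns 13, 14 and 15 are 915, 111 and 608 nt long and lie between coding exons on chromosome 11, the last of them at chr11:4179426-4180033 on the plus strand. Intron 14 (chr11:4179243-4179353) is shown because it had the lowest coSE of the members in the uninduced pool.
Sf3a1 intron 14, 5' splice site: cagGTatgt
Sf3a1 intron 14, 3' splice site: aactttctgtgatcccacAGgtc
Its deposited scores, 9.80 and 11.11, were above 72.2% and 85.7% of all introns of the second table.

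The other U2 genes had at most 2 comparable introns each. Sf3a3, which sits beside Sf3a1, had 91.0% of 100 observations spliced uninduced and 94.1% of 68 induced. Sf3b2, a neighbour of Sf3b1 in the complex, had 86.1% of 122 and 87.5% of 104. Sf3b4, an RNA-binding SF3B subunit, had 15 of 15 and 11 of 11 reads spliced at intron 1 and 13 of 16 and 8 of 10 at intron 2. Sf3a2 intron 1 had 8 of 10 and 9 of 10. Snrpb2, the U2B'' protein, had 34 uninduced observations, 97.1% spliced, and 0 induced observations.

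Among the proteins that recognise the branch site and the 3' splice site, Ddx39b (UAP56, an RNA helicase that also serves mRNA export) was deep enough to compare at 5 introns, of which 1 was higher in the induced pool, 3 lower and 1 equal. Its coSE ranged from 0.929 to 1 uninduced and from 0.917 to 1 induced. Intron 2 had 26 of 27 and 33 of 36 reads spliced, and intron 3 had 26 of 28 and 28 of 30. U2af1, the small subunit of the factor that binds the AG of the 3' splice site, had 12 of 12 reads spliced at intron 1 and 8 of 12 at intron 4 uninduced, and at most 6 reads at any intron induced. U2af2, the large subunit, which binds the pyrimidine tract, had 96.8% of 31 and 97.8% of 46 observations spliced. Sf1, the branch point binding protein, had 52.4% of 21 and 61.9% of 42, a low share at a depth of at most 8 reads per intron. Ddx46, a helicase that acts on U2, had 84.5% of 58 and 72.7% of 44. Its intron 1 (40 nt, an intron in 1 of the 4 annotated transcripts that span it) gave 0 of 3 and 0 of 8 of these, and the lower induced share rested on that intron.

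The tri-snRNP genes gave 29 uninduced and 37 induced introns with at least 10 reads, with a median coSE of 0.920 and 0.905. Of the 25 compared, 13 were higher in the induced pool, 8 lower and 4 equal.

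Snrnp200, the helicase that unwinds U4 from U6, had 87.1% of 496 uninduced and 94.0% of 449 induced observations spliced. Its intron 4 had 23 of 29 reads spliced uninduced (0.793, 0.616 to 0.902) and 24 of 24 induced (1, 0.862 to 1). The difference of 0.207 (0.0314 to 0.384) had the smallest p of the members, p = 0.0266, with an adjusted p of 0.460 (Fisher's exact test). Intron 9 had 18 of 24 and 20 of 22, intron 10 had 17 of 21 and 16 of 20, and intron 12 had 16 of 18 and 18 of 22. Of the 13 comparable introns, 6 were higher in the induced pool, 4 lower and 3 equal. Intron 4 lies at chr2:127211793-127212348 on the plus strand, between coding exons, and is shown for its 5' site.
Snrnp200 intron 4, 5' splice site: tggGTacct
Snrnp200 intron 4, 3' splice site: gtaatcccacatctcctcAGatg
The deposited 5' score was 1.54, above 1.35% of all introns of the second table, and the 3' score was 6.89. That 5' score was the lowest among the 13 introns of this gene in the second table. The intron's uninduced coSE of 0.793 was above those of introns 9 and 13 (0.750 and 0.778) and below those of the others. Whether the score bears on the coSE was not tested.

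Prpf8, the protein at the catalytic centre, had lower values than Snrnp200 in both pools, 69.5% of 243 uninduced and 70.2% of 275 induced observations spliced. Intron 9 had the lowest coSE of the members in the induced pool, with 4 of 14 reads spliced (0.286, 0.117 to 0.546) and 3 of 7 uninduced. Intron 8 had 2 of 4 and 5 of 12, and intron 22 had 2 of 2 and 6 of 12. Intron 29 had 1 of 3 and 7 of 11. Introns 13 and 16 could be compared, with 6 of 10 and 8 of 10 reads, and with 7 of 13 and 7 of 11 reads, and neither passed the test (p = 0.628 and p = 0.697, Fisher's exact test). Introns 8 and 9 are short, 125 and 83 nt, and follow each other on chromosome 11. Intron 9 (chr11:75491879-75491961, plus strand) is shown as the lowest induced value.
Prpf8 intron 9, 5' splice site: gagGTacag
Prpf8 intron 9, 3' splice site: tcatctctatttttacccAGgta
Its 5' score of 6.62 and 3' score of 7.61 were both below the medians of all introns, 8.78 and 8.70.

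Prpf3, a U4/U6 protein, held 3 of the 5 largest differences toward lower coSE, and none passed. Intron 3 had 13 of 14 reads spliced uninduced and 13 of 19 induced, a difference of -0.244 (-0.476 to 0.048) with p = 0.195 (Fisher's exact test). Intron 4 had 16 of 18 and 21 of 27, and intron 6 had 12 of 12 and 22 of 24. Over the gene 93.1% of 145 uninduced and 86.6% of 194 induced observations were spliced. Intron 4 lies at chr3:95847849-95848914 on the minus strand and is shown for its 3' site, whose score of 0.36 was above 0.704% of all introns.
Prpf3 intron 4, 5' splice site: cagGTtagt
Prpf3 intron 4, 3' splice site: cttttccctctggagaacAGatc
Of the 18 bases before its AG, 12 were C or T.

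Prpf31, which bridges U4/U6 and U5, had a pair of introns at the 5' end with nearly equal reads. Intron 1, in the 5' UTR, had 11 of 17 and 13 of 15 reads spliced and intron 2 had 11 of 17 and 13 of 16. The tests gave p = 0.229 and p = 0.438 (Fisher's exact test). Intron 3 had 5 of 10 and 7 of 9, and the gene Gm15927 lies on the opposite strand there. Whether the reads were assigned by strand is not stated, so that value is uncertain. Prpf4, a partner of Prpf3, had 10 of 10 and 8 of 10 at intron 1, and Prpf6, a bridge within the particle, had 11 of 11 induced reads spliced at intron 1 and 9 of 11 at intron 5. Eftud2, the U5 GTPase, had 10 of 10 and 5 of 5 at intron 1. Its intron 2 (6427 nt, an intron in 3 of 6 annotated transcripts that span it) had 0 of 7 and 0 of 6 reads spliced. It was named after its values were seen, and is below the minimum depth in both pools. The gene Gm26668 lies on the opposite strand of introns 1 to 9, so the same uncertainty of strand holds for each of them. Snrnp40, a U5 protein, had 7 and 5 observations.

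The LSm ring genes had 94.5% of 199 uninduced observations spliced, near the 97.4% of the Sm ring. Lsm7 had 18 of 20, 21 of 22 and 20 of 20 uninduced reads spliced at introns 1 to 3. Lsm8, the subunit that sets the nuclear ring apart, had 15 of 16, 13 of 13 and 13 of 16, and Lsm3 had 13 of 14, 13 of 14 and 13 of 13. Lsm6 intron 2 was the ring's comparable intron, with 12 of 13 reads spliced uninduced and 18 of 18 induced (p = 0.419, Fisher's exact test). Of the Prp19 complex, Cdc5l had 93.6% of 109 and 90.5% of 95 observations spliced and Plrg1 86.8% of 53 and 89.7% of 116. Plrg1 introns 1 and 3 had 5 of 5 reads spliced uninduced and 11 of 15 and 10 of 13 induced. Prpf19, the ubiquitin ligase of the complex, had 51.6% of 31 and 73.5% of 34, at a depth of at most 5 reads per intron. Of the late helicases, Dhx15, which takes the spent spliceosome apart, had 7 of 12 and 2 of 4 reads spliced at intron 4, and Dhx8, which releases the spliced mRNA, had 90.9% of 33 and 88.4% of 69 observations spliced.

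The number of nascent reads itself differed between groups of members. For each gene, the mean reads per intron per 100000 observations of the pool was taken, and the induced value was divided by the uninduced. Because each condition is 1 pool and the introns of a gene share reads, these ratios are given without a test. With at least 10 reads at the deepest intron over both pools together, 34 members were read, of which 9 (26.5%) were at least 2-fold lower in the induced pool, beside 25.7% of the 3231 genes of that depth. At least 2-fold higher were 6 (17.6%), beside 17.7%. The shares of 2-fold differences were thus near those of all genes, while the median ratio was 1.25 over the 34 members and 0.911 over the 3231 genes, with 22 of the 34 and 1488 of the 3231 above 1. Where both pools reached 10 reads, the medians were 1.56 over 14 members and 1.06 over 1084 genes, and 0 of the 14 and 12.8% of the 1084 were at least 2-fold lower. The members divided by role, in a way first seen in these values.

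Most Sm and LSm ring genes had fewer nascent reads in the induced pool. Over all 13 tabulated ring genes, with no minimum of reads, 10 were at least 2-fold lower by the ratio, and its median was 0.263. Of these 10, Lsm4 and Snrpf had 0 induced reads and too few uninduced reads to show a 2-fold lower value. Over the other 29 members, 3 were at least 2-fold lower, among them Snrpb2 with 0 induced reads, and the median was 1.35. With the minimum of 10 reads over both pools, 8 of 10 ring genes and 1 of 24 others were at least 2-fold lower, beside 25.7% of all 3231 genes. Those 8 met the minimum through the uninduced pool, where they are high, so the count is a description and supports nothing further, and Lsm6 alone of the rings had 10 reads in both pools. The 1 other gene was U2af1 at 0.469 (54 and 17 observations). By the deepest intron alone, 7 of the 10 and 2 of the 24 were at least 2-fold lower. U2af1 was no longer among them, at 0.745 (12 and 6 reads, 0.229 to 2.15), and the 2 were Sf3a1, at 0.186 (16 and 2 reads, 0.0208 to 0.792) against 0.799 over all its introns, and Dhx15, at 0.497 (12 and 4 reads, 0.117 to 1.64). Snrpg had 102 uninduced and 18 induced observations, a ratio of 0.263, and at its deepest intron 34 and 6 reads, a ratio of 0.263 with an exact 95% interval of 0.0903 to 0.634. Snrpe had 67 and 12 observations (0.267), Snrpd3 30 and 5 (0.248), Snrpd1 27 and 6 (0.331) and Snrpd2 30 and 7 (0.348). These 5 ratios over all introns lay between 0.248 and 0.348. At the deepest intron Snrpe stood at 0.235 (0.0446 to 0.799), while the intervals of Snrpd3 (0.373, 0.0906 to 1.16), Snrpd1 (0.397, 0.0960 to 1.25) and Snrpd2 (0.559, 0.179 to 1.50) included 1, and Snrpd2 was no longer 2-fold lower. In the LSm ring, Lsm3 had 41 and 2 observations (0.0727), Lsm8 45 and 6 (0.199) and Lsm7 62 and 10 (0.240). At its deepest intron Lsm3 held 13 and 2 reads, a ratio of 0.229 (0.0251 to 1.01), over 3 times the value from all its introns and with an interval that included 1. Lsm8 held 16 and 3 (0.279, 0.0522 to 0.976) and Lsm7 22 and 4 (0.271, 0.0679 to 0.798). The exceptions were Snrpb, with 6 and 12 observations (2.98), and Lsm6, with 26 and 35 (2.01). At the deepest intron they held 3 and 7 reads (3.48, 0.794 to 20.8) and 13 and 18 reads (2.06, 0.956 to 4.58), and both intervals included 1. Below the depth were Lsm5 with 11 and 5 observations and Lsm4 with 14 and 0. For Lsm4, 5 and 0 reads at the deepest intron gave an exact interval of the ratio from 0 to 1.63, which included 1. Snrpf had 4 and 0 observations, too few for a ratio.

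The ring genes are small genes with few introns, 2 to 6 in the annotated transcript for those read, and such genes had fewer induced reads across the table as well. Of all 780 genes of that depth with up to 4 introns, 35.0% were at least 2-fold lower and the median ratio was 0.694, and of the 9 members with up to 4 introns 8 were at least 2-fold lower with a median of 0.263. Of all 426 genes with at least 21 introns, 12.7% were at least 2-fold lower and the median was 1.14. The 9 members with up to 4 introns were all ring genes, so role and intron number largely coincided among the members. The part of gene size in the rings' ratios was not tested further. Several Sm and LSm genes have processed pseudogenes, which hold no introns. How reads were assigned to near-identical copies is not stated.

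**Figure D4:**
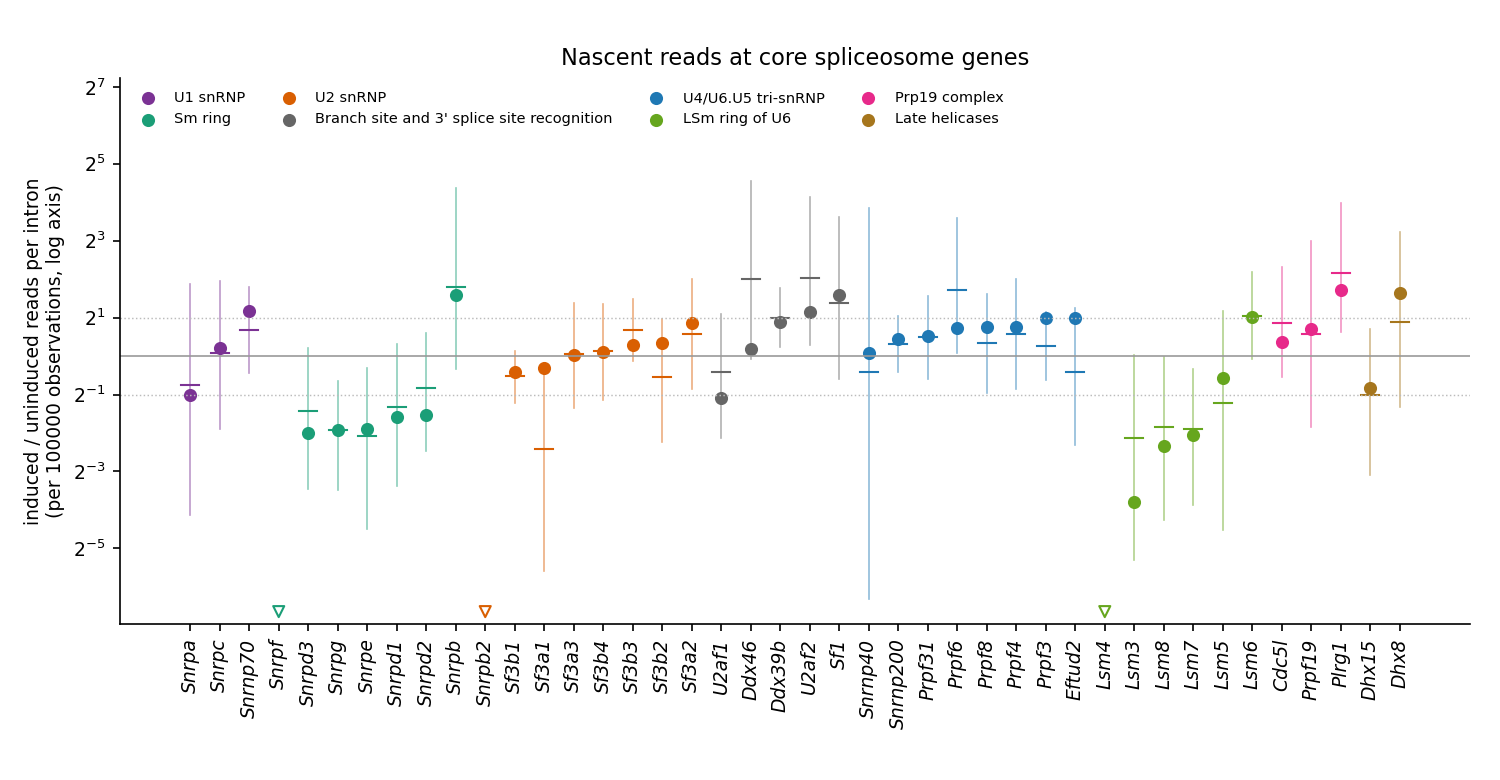
Ratio of nascent reads, induced over uninduced (vertical axis, log scale), for the member genes (horizontal axis), coloured by role. Circles are the mean over a gene's introns, dashes the ratio at its deepest intron with its exact 95% interval as a bar (counting error only), open triangles genes with 0 induced reads, and dotted lines a 2-fold difference. Most Sm and LSm genes lie below the lower dotted line, and Snrpb and Lsm6 lie above the upper one.

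Members with more nascent reads in the induced pool came from several roles. Plrg1, a Prp19 complex subunit, had 53 and 116 observations (ratio 3.26), and at its deepest intron 5 and 15 reads (4.47, 1.54 to 15.7). Sf1 had 21 and 42 observations (2.98), Snrnp70 68 and 102 (2.24) and U2af2 31 and 46 (2.21). Eftud2 (79 and 106, 2.00) and Prpf3 (145 and 194, 1.99) lay just under the 2-fold line and Lsm6 just over it. At the deepest intron Snrnp70 stood at 1.59 (0.736 to 3.45), Prpf3 at 1.20 (0.644 to 2.22) and Eftud2 at 0.745 (0.200 to 2.39), so these ratios depended on which introns were read. Sf1 stood there at 2.61 (0.663 to 12.2) and U2af2 at 4.10 (1.21 to 17.6). Dhx8 had 33 and 69 observations (3.12) but no intron with 10 reads over both pools, and 4 and 5 reads at the deepest (1.86, 0.401 to 9.39). Ddx39b had 125 and 156 (1.86), with 27 and 36 reads at its deepest intron (1.99, 1.17 to 3.40). The large tri-snRNP genes were higher by less, with Prpf8 at 1.69 and Snrnp200 at 1.35, and their intervals at the deepest intron, 0.512 to 3.05 and 0.749 to 2.07, included 1. In the U2 group Sf3b3 stood at 1.23 and Sf3b1 at 0.747, where the interval at the deepest intron, 0.432 to 1.10, included 1. Snrpb2 had 34 and 0 observations, and 9 and 0 reads at its deepest intron gave an exact interval of the ratio from 0 to 0.755. Dhx15 had 66 and 25 observations (0.565).

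The second table counts splicing intermediates, understood as RNAs between the 2 steps of splicing, and the share of them among intermediates and spliced reads is called NIC. It held 63 uninduced and 51 induced member introns. Of 963 uninduced reads, 31 were intermediates (3.22%, Wilson 95% interval 2.28 to 4.53), and of 801 induced reads 28 were (3.50%, 2.43 to 5.01). Over all introns of the table the shares were 2.71% and 4.35%. These shares add reads, so deep introns weigh most. The mean NIC over introns was 0.0370 uninduced and 0.0357 induced for the members, beside 0.0431 and 0.0440 for all introns. An intermediate was seen at 24 of the 63 uninduced introns (38.1%) and 22 of the 51 induced ones (43.1%), beside 36.2% and 37.8% of all introns. At the median depth of 12 and 14 reads 3 counts correspond to a share of 25% and 21.4%, so a NIC of 0 at a member intron says little. Of the 39 introns in both pools, 13 were higher in the induced pool, 12 lower and 14 at 0 in both. The Fisher's exact test called 0 of the 39, beside 0.0981% of all 2039 introns compared, and had 0 at an unadjusted p under 0.05, beside 1.67% of all. A chi-square test also called 0 and had 0 unadjusted.

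Among introns with at least 2 intermediates, those with the highest NIC held 2 or 3 each. Introns with 1 intermediate could reach a higher NIC than the last of them, as Sf3b1 intron 4 did with 1 of 9 induced reads. Uninduced, Sf3b1 intron 12 had 2 of 8 reads, Sf3b3 intron 9 2 of 12, Snrnp200 intron 12 2 of 12, Sf3b1 intron 6 2 of 14 and Snrnp200 intron 4 2 of 17. Induced, Sf3b3 intron 6 had 3 of 16, Ddx39b intron 5 2 of 12, Snrnp200 intron 10 2 of 13, Sf3b3 intron 4 2 of 16 and Ddx39b intron 3 2 of 29. None of these introns was named in both pools, but with 2 or 3 intermediates each their order is uncertain. Ddx39b intron 5 had no uninduced NIC, so it could not be named in both. Snrnp200 intron 4, with 2 of 17 and 0 of 19, had the smallest p, 0.216 (Fisher's exact test), with an adjusted p of 1. Sf3b3 intron 6 (chr8:110838350-110839871, minus strand) contains Snord111, a small nucleolar RNA made from the removed intron, and Ddx39b intron 5 (chr17:35247121-35248950, plus strand) contains the small RNA gene Gm25128. Small RNAs lay within 7 of the 490 member introns. The sites of Sf3b3 intron 6, as the highest induced NIC, were as follows.
Sf3b3 intron 6, 5' splice site: cggGTaaag
Sf3b3 intron 6, 3' splice site: tcctgtgtctggtttcccAGaat
Its scores were 6.23 and 7.55, both below the medians of all introns.

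The splice sites of the members were of the usual kind. All 75 member introns in the second table, from 13 genes, began with GT and ended with AG, as did 99.2% of all 6537. The letters GTATCC or ATATCC from the first intron base, with which most introns of the minor spliceosome begin, stood at 0.535% of all introns and at 0 members. The most common 5' site of the table was aagGTaagt. It stood whole at 4 member introns, Sf3b1 introns 11 and 16, Sf3b3 intron 21 and Snrnp200 intron 13, which is 5.33% of them beside 0.795% of all. At the other end, 5 or fewer of its 9 bases matched at 19 member introns (25.3%) beside 15.8% of all. The median scores were 8.68 against 8.78 at the 5' site and 8.61 against 8.70 at the 3' site, and the median length was 795 against 951 nt. The whole site gave no fixed outcome: the 4 introns had an uninduced coSE of 0.824, 0.900, 0.733 and 0.778.

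Length went with coSE among the members as it did over the table. Uninduced, the 14 member introns of up to 150 nt had a mean coSE of 0.744, the 52 over 150 and up to 1000 nt 0.840 and the 56 longer ones 0.906. Over all introns the 3 means were 0.756, 0.794 and 0.922. Induced, the members' means were 0.750, 0.910 and 0.935. The Spearman correlation of coSE with length over the members was 0.289 uninduced (n = 122) and 0.214 induced (n = 88), as a description of introns that share libraries and reads. Over all introns of that depth it was higher, 0.372 and 0.383. With the 5' and 3' scores the members' correlation was -0.00151 and -0.106 uninduced (n = 71), and 0.0875 and 0.0648 induced (n = 55). Over all introns of that depth it was 0.0468 and 0.112 uninduced, and 0.0583 and 0.0822 induced. The values were thus small in the members and over the table alike.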

How the data were processed

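Long-read RNA sequencing of chromatin-bound RNA was measured in 4 uninduced and 4 induced samples, grouped by GEO's labels. Per the submitters' processing notes, cutadapt, minimap2, SAMtools, bedtools and Bowtie and the builds mm10 and dm3 were used, without stated roles; which runs were added together, how reads were assigned to introns and how unspliced reads were merged are not given in the sources used here. The deposited tables hold, per the file headers, raw counts of spliced and unspliced reads, and in the second table counts of spliced reads and intermediates, the authors' fraction NIC, a deposited GC percent and a deposited score per splice site with its sequence. The second table lists fewer introns by a rule that is not stated. Its lengths are in nucleotides. No column belonged to other samples (0).

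Introns were named by GENCODE M21 on GRCm38; after a shift of the deposited start by 2 and of the end by 1, the positions of 68768 of 68794 introns equalled an annotated intron of the same transcript. coSE was computed at introns with at least 10 reads. Intervals of a share are Wilson 95% intervals, of a difference Newcombe's. Fisher's exact tests were adjusted over all introns compared, 4403 for coSE and 2039 for NIC, at a threshold of 0.05. They were tested on simulated data, and each compares 2 pools. Python 3.11.15, numpy 2.4.6, pandas 2.3.3, scipy 1.17.1 and matplotlib 3.10.9 were used.

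The introns named were the 5 largest rises and falls of coSE, the 10 lowest coSE values and the 5 highest NIC values among introns with at least 2 intermediates, of each pool, and any past a threshold; genes were named by their nascent read ratio and by role. The members, these rules and the lists of other spliceosome, SR, hnRNP and erythroid marker genes were chosen with earlier results of these data known. The division of nascent reads by ring was made after the values were seen. Alternatives tried were other minimum depths, a chi-square test, thinned uninduced reads, introns in every annotated transcript, other scalings and leaving out the deepest genes.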

Additional observations from a re-analysis of the deposited data

How the results depend on the processing

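The number of member introns past the threshold was 0 under each setting tried for coSE (at least 20 or 5 reads, no minimum, a chi-square test, introns in every annotated transcript, thinned uninduced reads, and without Snrnp200, Sf3b1 and Sf3b3) and under each for NIC. Over all introns the share called went from 1.61% to 5.11% at 20 reads (68 of 1330, beside 0 of 23 members), and the count from 71 to 36 with no minimum (0.0856% of 42074 introns) and to 31 for introns in every annotated transcript. The share of member introns fully spliced moved with the minimum depth: uninduced from 31.1% to 18.4% at 20 reads and to 44.4% at 5 reads, and induced from 44.3% to 31.0% at 20 reads. Members at least 2-fold higher in nascent reads went from 6 to 8 when the globin, Alas2 and Slc4a1 genes were left out of the scaling. The median ratio of all genes was 1.06 with 10 reads in both pools, 0.911 with 10 over both and 0.694 for those with up to 4 introns. The last 2 settings, the setting without the 3 deepest genes and 2 more were chosen after seeing the data. The other 65 gene and intron values and 27 of 30 main values moved by less than their 95% interval or kept their call. No paired analysis was possible because the tables hold 1 pool for each condition, so the replicate block and leaving out each replicate were not run. Depth limits every intron value: most member introns had fewer than 10 reads in each pool.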

Other observations

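A list of 50 further spliceosome genes, of which 48 were tabulated, likewise gave no call. Their 51 comparable introns gave 0 past the Fisher's exact test and 0 at an unadjusted p under 0.05, with 25 higher in the induced pool, 14 lower and 12 equal. The median coSE was 0.906 uninduced and 0.967 induced, but over different introns. At the 51 comparable introns the medians were 0.917 and 0.952, with a median difference of 0. A coSE below 0.5 was found at 7.29% and 4.76% of their introns, beside 3.28% and 2.27% for the core genes, and intermediates made up 5.92% and 2.47% of reads, beside 3.22% and 3.50%. In nascent reads, 8 of 31 genes with 10 reads over both pools were at least 2-fold lower (25.8%) and 5 at least 2-fold higher. The lowest were Snrnp27, a tri-snRNP protein, with 63 uninduced and 10 induced observations (ratio 0.237), and Ppih, a tri-snRNP cyclophilin, with 77 and 16 (0.310). The highest were Snrnp25, a protein of the minor spliceosome, with 15 and 38 (3.78), and Cwc22, which loads the exon junction complex, with 37 and 62 (2.50).

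The regulators of splicing had lower median coSE values than the core genes in these pools. Of the 12 SR genes, which code for activators of splicing, 5 in each pool had introns deep enough to read, with a median coSE of 0.895 uninduced (29 introns) and 0.846 induced (24 introns). The hnRNP genes, of which 19 of 20 were tabulated, had 0.770 (60 introns of 13 genes) and 0.600 (43 introns of 7 genes), and 12 of the 60 and 15 of the 43 introns were below 0.5. These medians are over different introns: at the introns deep enough in both pools they were 0.871 and 0.846 for the 23 SR introns and 0.789 and 0.843 for the 32 hnRNP introns, with a median difference of 0.00399 and -0.00151. Of their 23 and 32 comparable introns the Fisher's exact test called 0, with 0 and 3 at an unadjusted p under 0.05. The difference between these lists and the core genes was not tested.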
